A study of Rattus norvegicus with 9 samples.

Results

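The mitochondrial carrier genes Slc25, together with the uncoupling protein genes Ucp2 and Ucp3, were followed in rat kidney after 7 days of daily colistin methanesulfonate sodium (CMS), a prodrug of the polymyxin antibiotic colistin. Members were the genes whose symbol starts with Slc25a, and Ucp2 and Ucp3, read by a probe set listed for exactly 1 gene, with Slc25a20, the carnitine carrier of fatty acid oxidation, left out. Each gene was read by its probe set of highest mean, which gave 41 members among 14217 genes, and 35 of them were among the 10337 genes whose mean log2 intensity over the 9 arrays was at least 5. The members were taken by name, but the family was chosen with earlier results of these data known. Sprague-Dawley rats bought at 8 weeks of age and kept for 1 week were injected intraperitoneally with 0.9% saline carrying CMS at 0, 25 or 50 mg/kg. The groups are named vehicle, CMS25 and CMS50, with 3 rats and 3 arrays each. The labels record no lesion for vehicle, dilation and basophilia of tubules for CMS25, and for CMS50 dead cells, degenerated or dilated tubules and eosinophilic casts. Whole right kidneys were used, so a level is a mixture over all kidney cell types, and the sex of the rats is not given in the sources used here.

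Mitochondrial carriers are proteins of the inner mitochondrial membrane that exchange nucleotides, phosphate, carboxylic acids, amino acids, cofactors and metal ions between the cytosol and the matrix. Each carrier has its own substrates, so the set of carriers that a cell makes fixes which pathways can run across that membrane. Kidney tubules are dense in mitochondria, and their salt and solute transport, ammonia production and glucose synthesis all pass metabolites through these carriers.

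The arrays read the tissue as labelled. All 12 proximal tubule markers were above the intensity minimum. Their summed level (log2 of the sum of linear intensities) was 15.87, 15.87 and 16.11 in CMS50 replicates 1, 2 and 3 and 16.06 to 16.11 in vehicle. CMS50 replicates 1 and 2 thus lay below every vehicle kidney. Of the 12 markers 2 were higher in CMS50 than in vehicle, Slc7a9 (log2 difference 1.26) and Cubn (0.90). Another 3 were lower, Slc22a6 (-1.25), Slc3a1 (-0.51) and Aqp1 (-0.43). Correlations between arrays ran from 0.967 to 0.994. CMS50 kidneys also differed in other cell markers. All 12 macrophage markers tested were higher than in vehicle (14 were listed, and Itgam and Cd163 were under the minimum), with summed levels of 13.1 to 13.8 in CMS50 and 11.8 to 11.9 in vehicle. Of 8 thick ascending limb and distal tubule markers tested, 6 were lower, with sums of 13.3 to 14.7 in CMS50 and 15.2 to 15.4 in vehicle. Of 9 collecting duct markers 4 were lower, with sums of 11.4 to 12.1 in CMS50 and 12.4 to 12.7 in vehicle. A reading of RNA quality, how far the 3′ control probe set of beta-actin exceeded its 5′ one on the log2 scale, was 3.58 ± 0.0854 in CMS50 and 2.98 ± 0.155 in vehicle (SD, n = 3 each, two-sided exact permutation p = 0.1, the smallest that 3 against 3 allows). The same reading for GAPDH was 0.816 ± 0.0622 in CMS50 and 0.542 ± 0.0286 in vehicle (SD, n = 3 each, two-sided exact permutation p = 0.1). CMS50 replicate 3 lay nearest to the vehicle mean of the 3 CMS50 arrays in 11 of the 13 carrier genes called below, and results are given without it where it matters.

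At 50 mg/kg the carrier family split. Compared with vehicle, 3 of the 35 tested members rose and 10 fell in limma fits with Benjamini-Hochberg adjustment over all 10337 genes (called at an adjusted p under 0.05). Across all genes 31.1% were called, 19.6% higher and 11.4% lower, against 37.1% of the carrier members, 8.57% higher and 28.6% lower. The median log2 difference of the members was -0.22 and that of all genes 0.0524. The genes that rose were Slc25a24, Slc25a1 and Ucp2. Those that fell were Slc25a25, Slc25a13, Slc25a38, Slc25a16, Slc25a33, Slc25a42, Slc25a30, Slc25a48, Slc25a51l1 and Slc25a46. The 3 CMS50 arrays lay outside the vehicle range in 17 members, a separation that 49.6% of all genes showed. Leaving out vehicle replicate 3 gave 8 called members, as did leaving out CMS50 replicate 1, and leaving out CMS50 replicate 3 gave 18. Over all genes the same fits called 2142, 1711 and 3546, in that order, against 3211 with all arrays. In these bulk samples, fewer cells of a type and less RNA per cell cannot be told apart. Both RNA quality readings and the macrophage, distal tubule and collecting duct sums given above moved with every one of these changes, and their part in them was not tested. The proximal tubule sum was below the vehicle range in CMS50 replicates 1 and 2 but not in replicate 3, and its part was not tested either.

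**Figure D1:**
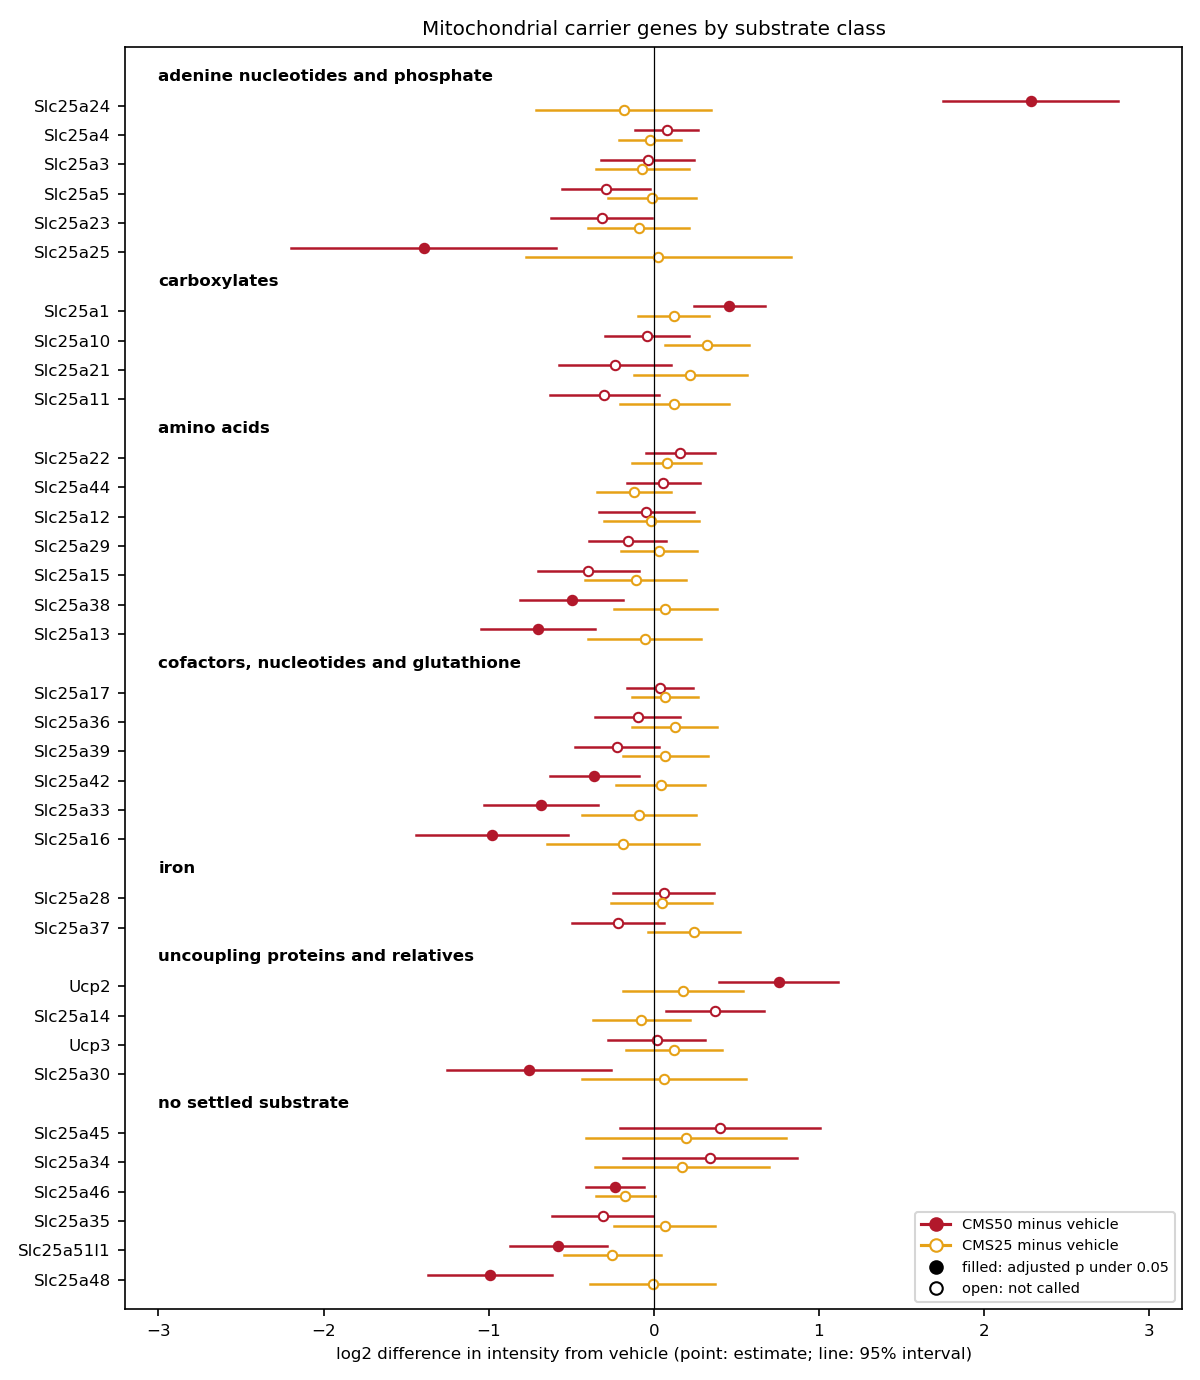
Log2 difference in intensity from vehicle for the 35 tested carrier genes (horizontal axis), grouped by substrate, for CMS50 minus vehicle (red) and CMS25 minus vehicle (orange). Points are estimates, lines are 95% intervals of the fit and filled points have an adjusted p under 0.05: 3 red points to the right and 10 to the left of 0 are filled, and 0 orange ones.

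The widest changes in the family stood side by side in one subfamily, the calcium-regulated carriers that exchange ATP-Mg for phosphate and so set the adenine nucleotide content of the matrix. Slc25a24 (probe set 1380909_at) and Slc25a25 (1371754_at) belong to it, as does Slc25a23. Slc25a24 read 6.79, 6.68 and 6.92 log2 units on the vehicle arrays, 6.49, 7.03 and 6.33 on the CMS25 arrays, and 9.28, 9.39 and 8.56 on the CMS50 arrays. Every CMS50 kidney was above all vehicle and CMS25 kidneys, replicate 3 least. It was 4.86-fold higher in CMS50 than in vehicle (log2 difference 2.28, SE 0.24, adjusted p = 0.0013), and the log2 difference was 2.54 without CMS50 replicate 3. Summed proliferation markers were also higher, at 11.2 to 11.7 in CMS50 and 10.5 to 10.6 in vehicle, and their part in this rise was not tested.

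Slc25a25 moved the other way. It read 9.51, 8.82 and 10.20 on the vehicle arrays, 9.27, 9.77 and 9.57 on the CMS25 arrays, and 7.50, 8.25 and 8.59 on the CMS50 arrays. The vehicle arrays were themselves spread over more than a log2 unit, but none reached down to the CMS50 values. The gene was 2.63-fold lower in CMS50 than in vehicle (log2 difference -1.39, SE 0.36, adjusted p = 0.0186). Without vehicle replicate 3 the difference was -1.05 (adjusted p = 0.0550), and without CMS50 replicate 1 it was -1.09 (adjusted p = 0.0671), so the call rests on these arrays. Slc25a23, another carrier of this kind, differed by -0.31 (adjusted p = 0.106), and its other probe sets by 0.07 and -0.07.

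The promoters of this pair are printed because the 2 genes code for carriers of the same substrates and had the largest differences in the family, in opposite directions. The stretches are the 250 bases before the gene start in the RefSeq annotation of the rat assembly GRCr8, at chr2:199449175-199449424 on the plus strand for Slc25a24 and chr3:36116582-36116831 on the minus strand for Slc25a25. Capitals mark the motifs that were found: the GC box (GGGCGG), the CCAAT box (CCAAT) and the cAMP response element (TGACGTCA), each searched on both strands.
Slc25a24: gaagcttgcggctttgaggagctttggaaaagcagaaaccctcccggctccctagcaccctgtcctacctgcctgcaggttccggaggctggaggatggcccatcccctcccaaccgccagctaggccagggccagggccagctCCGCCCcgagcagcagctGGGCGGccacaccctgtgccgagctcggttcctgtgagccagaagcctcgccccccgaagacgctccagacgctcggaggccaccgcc
Slc25a25: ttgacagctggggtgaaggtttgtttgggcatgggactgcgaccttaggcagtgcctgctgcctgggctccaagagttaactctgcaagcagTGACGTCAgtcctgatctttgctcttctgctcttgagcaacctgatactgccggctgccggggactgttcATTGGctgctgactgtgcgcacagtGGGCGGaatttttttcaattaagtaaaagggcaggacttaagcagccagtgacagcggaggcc
The Slc25a24 stretch had a GC content of 68.4% and held 2 GC boxes, which began 106 and 88 bases before the start. The Slc25a25 stretch had a GC content of 54.4%, with a cAMP response element at 158, a CCAAT box at 88 and a GC box at 63 bases before the start. Promoters were given for 35 of the 41 members. The response element was in 2 of these 35, Slc25a25 and Slc25a33, and in 1.7% of 27457 rat promoters. The GC box was in 20 of the 35 and in 32.4% of all promoters, and the CCAAT box in 19 and in 34.3%. The estrogen-related receptor motif TCAAGGTCA, linked to nuclear genes of mitochondria, was in 0 of the 35 member stretches and in 0.368% of all promoters. A match is a string of letters and was not tested as a binding site.

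The bulk carriers of oxidative phosphorylation were not called. Slc25a4 and Slc25a5, which exchange ADP for ATP, differed between CMS50 and vehicle by 0.08 and -0.29 (adjusted p = 0.508 and 0.0907). Slc25a3, which imports phosphate, differed by -0.04 with a 95% interval of -0.32 to 0.25. Slc25a3 read 12.64, 12.57 and 12.69 in CMS50 and 12.97, 12.48 and 12.55 in vehicle, so its CMS50 arrays lay inside the vehicle range. Slc25a5 read 13.17, 13.17 and 13.44 in CMS50 and 13.65, 13.51 and 13.49 in vehicle, a small gap that missed the threshold. In the adenine nucleotide and phosphate class as a whole, 1 of 6 tested members rose and 1 fell (33.3% called, against 31.1% of all genes).

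**Figure D2:**
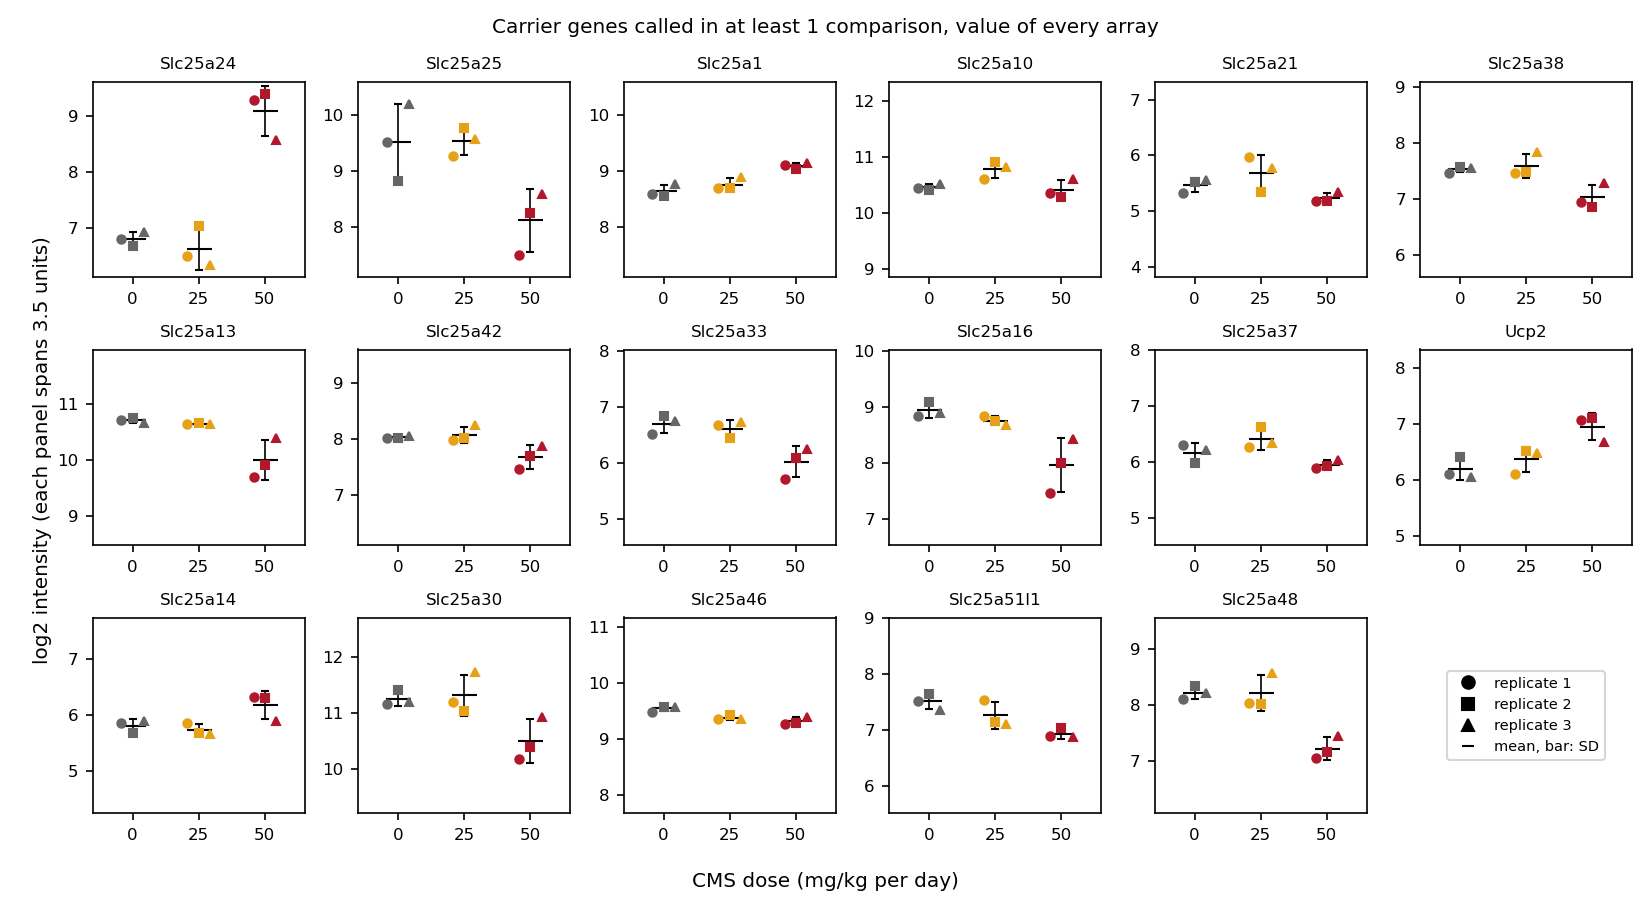
Log2 intensity of every array (vertical axes, each spanning 3.5 units) against daily CMS dose in mg/kg (horizontal axes) for the 17 carrier genes called in at least 1 comparison. Marker shapes are replicates and bars are means with SD; the CMS50 values of Slc25a24 lie between 8.56 and 9.39, above every other array, and CMS50 replicate 3 is often the CMS50 point nearest the vehicle points.

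Among the carboxylate carriers the citrate exporter rose. Slc25a1 (1367773_at) hands mitochondrial citrate to the cytosol, where it can feed fatty acid synthesis. It read 8.58, 8.56 and 8.77 on the vehicle arrays, 8.69, 8.69 and 8.90 on the CMS25 arrays, and 9.11, 9.04 and 9.14 on the CMS50 arrays. The difference between CMS50 and vehicle was 0.46 (1.37-fold, SE 0.10, adjusted p = 0.00878), and the arrays of these groups did not overlap. The other 3 members of the class were not called against vehicle, with differences from -0.30 for Slc25a11, the oxoglutarate and malate carrier of the malate-aspartate shuttle, to -0.04 for Slc25a10, the dicarboxylate carrier.

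Of 7 amino acid carriers tested, 2 fell and 0 rose (28.6% called, all lower, against 31.1% of all genes called and 11.4% lower). Slc25a13 (1389622_at) encodes citrin, the aspartate and glutamate carrier that serves the urea cycle and the malate-aspartate shuttle in liver. It read 10.71, 10.75 and 10.66 in vehicle, 10.65, 10.67 and 10.64 in CMS25, and 9.70, 9.92 and 10.40 in CMS50. All 3 CMS50 arrays were below the other 6, although replicate 3 was closer to them than its companions. The log2 difference from vehicle was -0.70 (SE 0.15, adjusted p = 0.0103), and a second probe set of the gene differed by -0.90. Slc25a12, the related carrier known from muscle and brain, differed by -0.04, with a 95% interval of -0.33 to 0.24.

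Slc25a38 (1372866_at) encodes the carrier that brings glycine into mitochondria for haem synthesis. It read 7.47, 7.57 and 7.55 in vehicle, 7.46, 7.49 and 7.84 in CMS25, and 6.95, 6.85 and 7.29 in CMS50. The difference between CMS50 and vehicle was -0.50 (SE 0.14, adjusted p = 0.0259). This call was lost without any 1 of 5 arrays: the difference was -0.53, -0.48 and -0.49 without vehicle replicates 1, 2 and 3 (adjusted p = 0.0534, 0.0768 and 0.0695), and -0.46 and -0.41 without CMS50 replicates 1 and 2 (adjusted p = 0.0862 and 0.0944). Erythroid markers moved with it. All 3 tested (Hbb, Alas2 and Slc4a1, which collecting duct cells also express) were lower, with summed levels of 9.01 to 11.3 in CMS50 and 12.9 to 13.1 in vehicle, and their part in the Slc25a38 result was not tested. Among the amino acid carriers not called, Slc25a15, the ornithine and citrulline carrier, came closest (-0.40, adjusted p = 0.0524). Its 5 other probe sets differed by -0.23 to -0.88. The -0.23 was that of the dimmest, with a mean of 3.45, under the minimum. The others differed by -0.47 (SE 0.25), -0.88 (SE 0.26), -0.75 (SE 0.27) and -0.75 (SE 0.12). The most positive of the amino acid carriers not called was Slc25a22, a glutamate carrier, at 0.16.

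Carriers of cofactors and nucleotides gave 3 falls and 0 rises among 6 tested (50% called, against 31.1% of all genes called and 11.4% lower). Slc25a16 (1384368_at), linked through its yeast counterpart to the coenzyme A supply of the matrix, read 8.84, 9.10 and 8.89 in vehicle, 8.84, 8.75 and 8.68 in CMS25, and 7.46, 8.00 and 8.42 in CMS50. It was 1.97-fold lower in CMS50 than in vehicle (log2 difference -0.98, SE 0.20, adjusted p = 0.00872), and the CMS50 arrays were spread over almost a log2 unit. Slc25a42 (1388579_at), a coenzyme A carrier, read 8.02, 8.03 and 8.06 in vehicle, 7.98, 8.02 and 8.24 in CMS25, and 7.46, 7.69 and 7.88 in CMS50. Its difference of -0.36 (SE 0.12, adjusted p = 0.0469) was close to the threshold. Without vehicle replicates 1, 2 and 3 it was -0.37, -0.37 and -0.35 (adjusted p = 0.0972, 0.107 and 0.114), without CMS25 replicates 1 and 2 it was -0.36 (adjusted p = 0.0545 and 0.0573), and without CMS50 replicates 1 and 2 it was -0.25 and -0.37 (adjusted p = 0.152 and 0.107).

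Slc25a33 (1373282_at), a pyrimidine nucleotide carrier, read 6.53, 6.85 and 6.75 in vehicle, 6.68, 6.45 and 6.73 in CMS25, and 5.72, 6.10 and 6.26 in CMS50. Its difference was -0.68 (SE 0.15, adjusted p = 0.0113), and no CMS50 array reached the vehicle or CMS25 range. Slc25a36, the other pyrimidine nucleotide carrier, differed by -0.10, with a 95% interval of -0.36 to 0.16. The remaining members of the class ran from -0.22 for Slc25a39, needed for glutathione import, to 0.04 for Slc25a17, a carrier of peroxisomes. A second probe set of Slc25a39 differed by -0.05. The iron carriers of mitochondria, the mitoferrins Slc25a28 and Slc25a37, differed by 0.06 and -0.22, and neither was called against vehicle.

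Ucp2 and the kidney carrier Slc25a30 parted within the uncoupling class. Ucp2 (1368669_at), an uncoupling protein gene active in many tissues and in macrophages, read 6.12, 6.42 and 6.06 in vehicle, 6.12, 6.52 and 6.49 in CMS25, and 7.08, 7.11 and 6.68 in CMS50. It was 1.69-fold higher in CMS50 than in vehicle (log2 difference 0.76, SE 0.16, adjusted p = 0.00925), and each CMS50 array exceeded all 6 others. The macrophage sums given above were also higher in each CMS50 kidney than in all the others, and their part in the Ucp2 result was not tested. Ucp3, the form of skeletal muscle, differed by 0.02 (95% interval -0.27 to 0.31), and Slc25a14 by 0.37 (adjusted p = 0.0580).

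Slc25a30 (1390416_at) encodes the kidney mitochondrial carrier protein, named for the tissue in which it is abundant. It read 11.16, 11.41 and 11.19 in vehicle, 11.19, 11.03 and 11.73 in CMS25, and 10.18, 10.39 and 10.93 in CMS50. CMS50 replicates 1 and 2 were well below the others and replicate 3 only just. The log2 difference was -0.75 (SE 0.22, adjusted p = 0.0306), and a second probe set differed by -1.16. The call was lost without vehicle replicates 1, 2 and 3 (-0.80, -0.68 and -0.78, adjusted p = 0.0594, 0.0975 and 0.0662) and without CMS50 replicates 1 and 2 (-0.59 and -0.70, adjusted p = 0.109 and 0.0960). Without CMS50 replicate 3 it was -0.97 (adjusted p = 0.00741).

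Members with no settled substrate gave 3 falls and 0 rises among 6 tested (50% called, against 31.1% of all genes called and 11.4% lower). Slc25a48 (1389678_at), linked to choline import in human and mouse cells, read 8.09, 8.32 and 8.20 in vehicle, 8.02, 8.00 and 8.57 in CMS25, and 7.04, 7.16 and 7.44 in CMS50. It was 1.99-fold lower in CMS50 than in vehicle (log2 difference -0.99, SE 0.17, adjusted p = 0.00413), with a gap between the groups wider than the spread of either, and its second probe set differed by -0.75. Slc25a51l1 (1395621_at) is named as a close copy of the NAD carrier Slc25a51, so which of these genes the probe set reads is uncertain. The gene fell into this class because no list of carriers with a known substrate held its symbol, while Slc25a51 was listed with the cofactor carriers. It read 7.52, 7.66 and 7.37 in vehicle, 7.54, 7.15 and 7.11 in CMS25, and 6.89, 7.05 and 6.87 in CMS50, a difference of -0.58 between CMS50 and vehicle (SE 0.13, adjusted p = 0.0118). In CMS25, 2 of the 3 arrays were below the vehicle range.

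Slc25a46 (1382150_at), an outer membrane member that takes part in mitochondrial shape, read 9.48, 9.57 and 9.57 in vehicle, 9.35, 9.42 and 9.35 in CMS25, and 9.26, 9.29 and 9.39 in CMS50. Its difference of -0.23 (SE 0.08, adjusted p = 0.0498) was the smallest called, and leaving out any 1 array other than CMS50 replicate 3 ended the call, with adjusted p from 0.0560 to 0.144. Over all 20 alternative fits the call was lost in 14, among them cyclic loess, the lower minimum settings, every probe set tested and the fit of these groups alone. Its second probe set differed by -0.79. The members of this class that were not called ran from -0.31 for Slc25a35 to 0.40 for Slc25a45. Slc25a45 read 9.53, 9.04 and 9.74 in CMS50 and 9.65, 8.59 and 8.86 in vehicle, an overlap of the groups (adjusted p = 0.282).

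**Figure D3:**
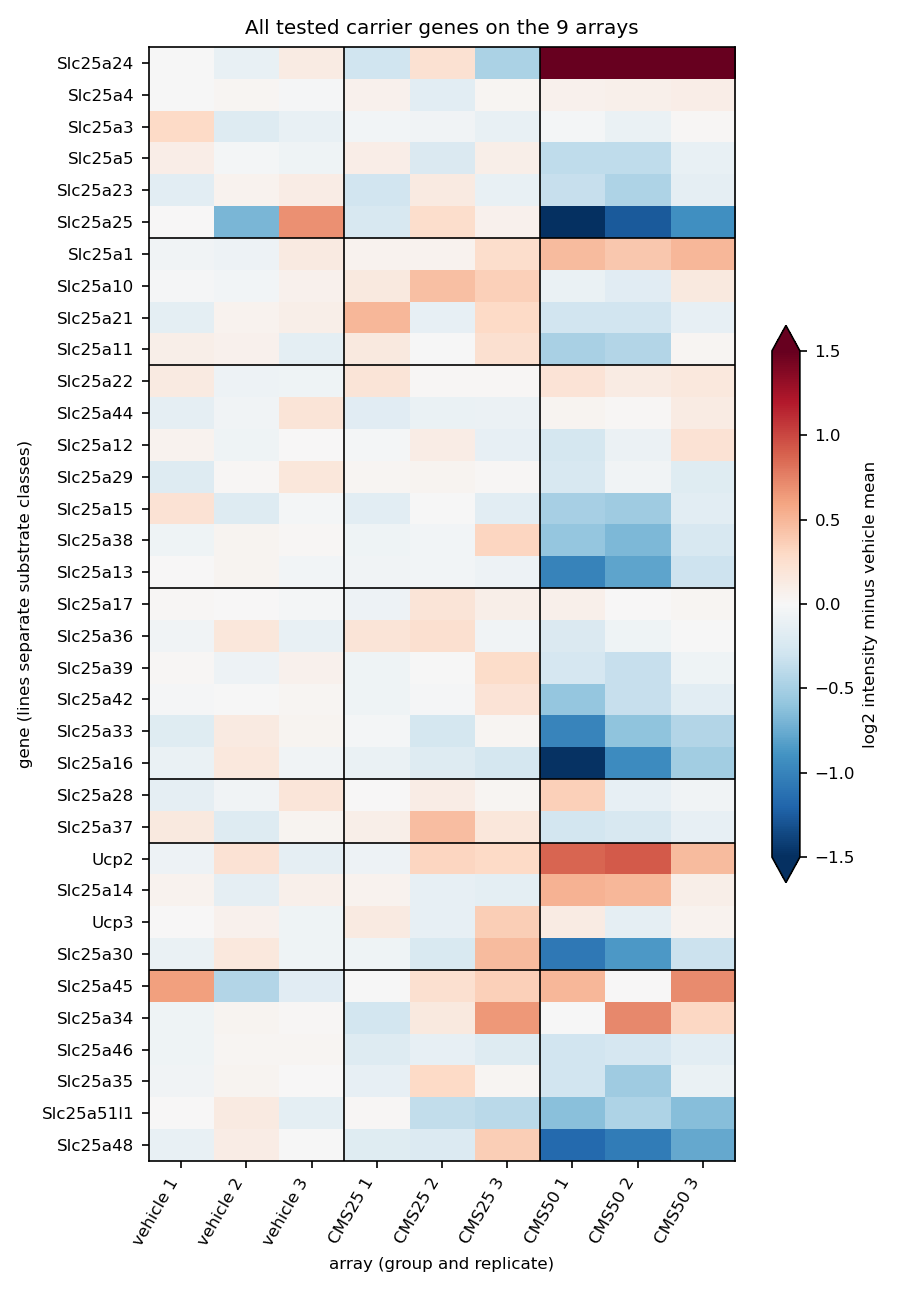
Log2 intensity minus the vehicle mean (colour, cut at 1.5 either way) for the 35 tested carrier genes on the 9 arrays, with lines between substrate classes and between groups. The CMS50 columns are darkest in replicates 1 and 2 and paler in replicate 3, which was nearest to the vehicle mean in 11 of the 13 genes called against vehicle.

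A further 6 members were under the intensity minimum and were not tested. Their lowest and highest arrays were 4.19 and 4.76 for Slc25a41, 3.10 and 3.73 for Slc25a31, 4.39 and 5.11 for Slc25a18, 4.24 and 5.02 for Slc25a32, 4.23 and 5.17 for Slc25a53, and 4.38 and 4.87 for Slc25a27. Slc25a31 is the ADP and ATP carrier of the testis, and Slc25a27 an uncoupling protein relative of the brain. Slc25a2, Slc25a6, Slc25a26, Slc25a40, Slc25a43, Slc25a47, Slc25a51, Slc25a52 and Slc25a54 were not analysed here, and 2 probe sets that name Slc25a51 beside other genes were left out.

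At 25 mg/kg no carrier gene was called. Of the 35 tested members 0 had an adjusted p under 0.05 in limma, as did 0% of all 10337 genes, and each alternative fit also gave 0. At an unadjusted p under 0.05 there was 1 member, Slc25a10, and 604 genes, 5.84% of those tested. Slc25a10 (1370020_at), the carrier that exchanges malate or succinate for phosphate, read 10.61, 10.91 and 10.82 in CMS25 and 10.44, 10.42 and 10.52 in vehicle, a log2 difference of 0.32 (SE 0.11, adjusted p = 0.785). At the other end was Slc25a51l1 at -0.25, and the median over the members was 0.04. The arrays of CMS25 and vehicle did not overlap for 3 members, Slc25a10, Slc25a16 and Slc25a46, as for 12.1% of all genes. For Slc25a24, the 95% interval of the CMS25 difference ran from -0.71 to 0.35, and for Slc25a25 from -0.78 to 0.83. The beta-actin RNA quality reading was 3.17 ± 0.120 in CMS25 and 2.98 ± 0.155 in vehicle (SD, n = 3 each, two-sided exact permutation p = 0.3).

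The step between the doses was tested directly, on the same CMS50 arrays as above. Of the 35 members, 4 were higher and 11 lower in CMS50 than in CMS25, where 30.3% of all genes were called (20.8% higher and 9.43% lower). The median member difference was -0.23 and that of all genes 0.0744. Leaving out CMS25 replicate 3 gave 8 called members, leaving out CMS50 replicate 1 or 2 gave 4 each, leaving out CMS50 replicate 3 gave 19, and a fit of these groups alone gave 9. Over all genes the same fits called 2008, 1737, 1569, 3518 and 2165, in that order, against 3128 with all arrays. Slc25a24 was 5.51-fold higher (log2 difference 2.46, adjusted p = 0.000943) and Slc25a48 lower by a log2 difference of -0.99 (adjusted p = 0.00427), and these 2 calls held in every alternative. The others named above differed by 0.58 for Ucp2, 0.33 for Slc25a1, -1.42 for Slc25a25, -0.81 for Slc25a30, -0.79 for Slc25a16, -0.64 for Slc25a13, -0.59 for Slc25a33, -0.57 for Slc25a38 and -0.40 for Slc25a42. Their adjusted p ran from 0.0143 to 0.0326. Each of these calls was lost when some single array was left out, with adjusted p of 0.0504 to 0.105 where lost. Leaving out CMS50 replicate 1 ended the calls of Ucp2 (0.52), Slc25a1 (0.33), Slc25a25 (-1.11), Slc25a30 (-0.65), Slc25a33 (-0.44), Slc25a38 (-0.53) and Slc25a42 (-0.29). Leaving out CMS50 replicate 2 ended those of Ucp2 (0.50), Slc25a1 (0.36), Slc25a30 (-0.76), Slc25a16 (-0.81), Slc25a13 (-0.60), Slc25a38 (-0.48) and Slc25a42 (-0.41), and leaving out CMS50 replicate 3 ended that of Slc25a1 (0.31). Without CMS25 replicate 1 the calls of Ucp2 (0.45), Slc25a1 (0.30), Slc25a16 (-0.75) and Slc25a33 (-0.56) were lost. Without CMS25 replicate 2 those of Slc25a1 (0.30), Slc25a25 (-1.30) and Slc25a42 (-0.43) were lost. Without CMS25 replicate 3 those of Slc25a25 (-1.40), Slc25a30 (-0.61), Slc25a33 (-0.54) and Slc25a42 (-0.32) were lost. Some differences hardly moved when the call was lost, such as that of Slc25a25, -1.40 without CMS25 replicate 3 and -1.42 with all arrays. Slc25a46 and Slc25a51l1 were not called, at -0.06 and -0.33, but the second probe set of Slc25a46 differed by -0.45 (SE 0.14) between the doses.

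Another 4 carriers were called between the doses and not against vehicle, and whether these 2 differences are unequal was not tested. Of all genes 30.3% were called between the doses and 31.1% against vehicle. The share of all genes called only between the doses is not given here, so the 4 are not read as a trait of the family. Slc25a10 read 10.36, 10.29 and 10.61 in CMS50 beside the CMS25 values above (difference -0.36, SE 0.11, adjusted p = 0.0394). Slc25a21 (1387426_at), the oxodicarboxylate carrier of lysine breakdown, read 5.18, 5.18 and 5.34 in CMS50 and 5.97, 5.34 and 5.77 in CMS25, with 5.33, 5.53 and 5.55 in vehicle (difference -0.46, SE 0.15, adjusted p = 0.0472). Slc25a37 (1382688_at), the mitoferrin of red cell precursors, read 5.90, 5.93 and 6.05 in CMS50 and 6.26, 6.63 and 6.34 in CMS25, with 6.32, 5.98 and 6.22 in vehicle (difference -0.46, SE 0.12, adjusted p = 0.0236).

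For Slc25a37, the erythroid sums were 9.01 to 11.3 in CMS50 and 12.9 to 13.9 in CMS25, and their part in its difference was not tested. Slc25a14 (1387103_s_at), a relative of the uncoupling proteins known from brain, read 6.32, 6.30 and 5.89 in CMS50 and 5.85, 5.68 and 5.65 in CMS25, with 5.86, 5.66 and 5.88 in vehicle (difference 0.44, SE 0.13, adjusted p = 0.0314). For Slc25a10, Slc25a21 and Slc25a37 the CMS25 mean was above vehicle and the CMS50 mean below it. These 4 calls were each lost without CMS50 replicate 1 and without CMS50 replicate 2, with adjusted p from 0.0752 to 0.137 and differences of -0.33 and -0.29 for Slc25a10, -0.43 and -0.43 for Slc25a21, -0.43 and -0.44 for Slc25a37, and 0.37 and 0.38 for Slc25a14. They were also lost without CMS25 replicate 1 for Slc25a21 (-0.32), without CMS25 replicate 2 for Slc25a10 (-0.29), Slc25a37 (-0.35) and Slc25a14 (0.42), and without CMS25 replicate 3 for Slc25a10 (-0.34), Slc25a21 (-0.42) and Slc25a14 (0.41). Leaving out any 1 vehicle array ended the calls of Slc25a10 and Slc25a21, with differences still -0.36 and -0.46. The Slc25a21 call was lost in 13 of 19 alternative fits in all, among them cyclic loess, a minimum of 4, no minimum and a variance trend. Over the 3 groups together, an F test called 11 members, and 28.1% of all genes.

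Genes that work beside the carriers were read from lists of their own, again as CMS50 against vehicle. The mitochondrial pyruvate carrier, which is not an Slc25 protein, fell in both its subunits. Mpc1 averaged 11.34 ± 0.27 in CMS50 and 12.34 ± 0.04 in vehicle (SD, n = 3 each, log2 difference -0.999, SE 0.14, adjusted p = 0.00274), and Mpc2 differed by -0.73 (SE 0.13, adjusted p = 0.00463). In the same list of 9 genes Vdac2, a channel of the outer membrane, and Mtch1, an outer membrane relative of the carriers, rose by 0.34 and 0.26, so 2 rose and 2 fell (44.4% called, against 31.1% of all genes), with a median of -0.21.

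The machinery that inserts carriers into the inner membrane gave 1 rise and 4 falls among 16 genes (31.2% called, against 31.1% of all genes). By direction 6.25% were higher and 25% lower, against 19.6% and 11.4% of all genes. The median was 0.05, near that of all genes. Tomm40, the outer membrane import pore, rose by 0.45 (SE 0.10, adjusted p = 0.00994). Timm8a1 and Timm8b, chaperones of the intermembrane space, and Timm29, a subunit of the carrier translocase, differed by -0.67, -0.37 and -0.44. Timm22, the channel of that translocase, differed by 0.17 (adjusted p = 0.273).

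Enzymes that make or use the carried substrates gave 1 rise and 7 falls among 16 tested (50% called, against 31.1% of all genes), with a median of -0.34. Me1, the cytosolic malic enzyme, averaged 8.54 in CMS50 and 10.31 in vehicle, a log2 difference of -1.76 (SE 0.31, adjusted p = 0.00488). Gldc, of glycine breakdown, differed by -1.28, Bcat2, which transfers the amino group of branched-chain amino acids, by -0.87 and Glud1, glutamate dehydrogenase, by -0.51, all called. Acly, which splits the citrate that Slc25a1 exports, differed by -0.03 (adjusted p = 0.785).

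Of 9 other inner membrane transporters tested, 2 fell and 0 rose (22.2% called, all lower, against 31.1% of all genes called and 11.4% lower). They were Sfxn5, a sideroflexin (-0.55), and Micu2, a gatekeeper of the calcium uniporter (-0.54). Regulators of mitochondrial biogenesis gave 2 rises and 5 falls among 13 tested (53.8% called, against 31.1% of all genes), with a median of -0.25. Pprc1, a coactivator of the Ppargc1 family, rose by 0.84 (SE 0.21, adjusted p = 0.0185). Tfb2m, of mitochondrial transcription, differed by -0.69 (SE 0.09, adjusted p = 0.00215), Esrrb by -0.79 and Ppard by -0.52, and Ppargc1a by -0.05 (adjusted p = 0.794). At 25 mg/kg 0 genes of these 5 lists were called.

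**Figure D4:**
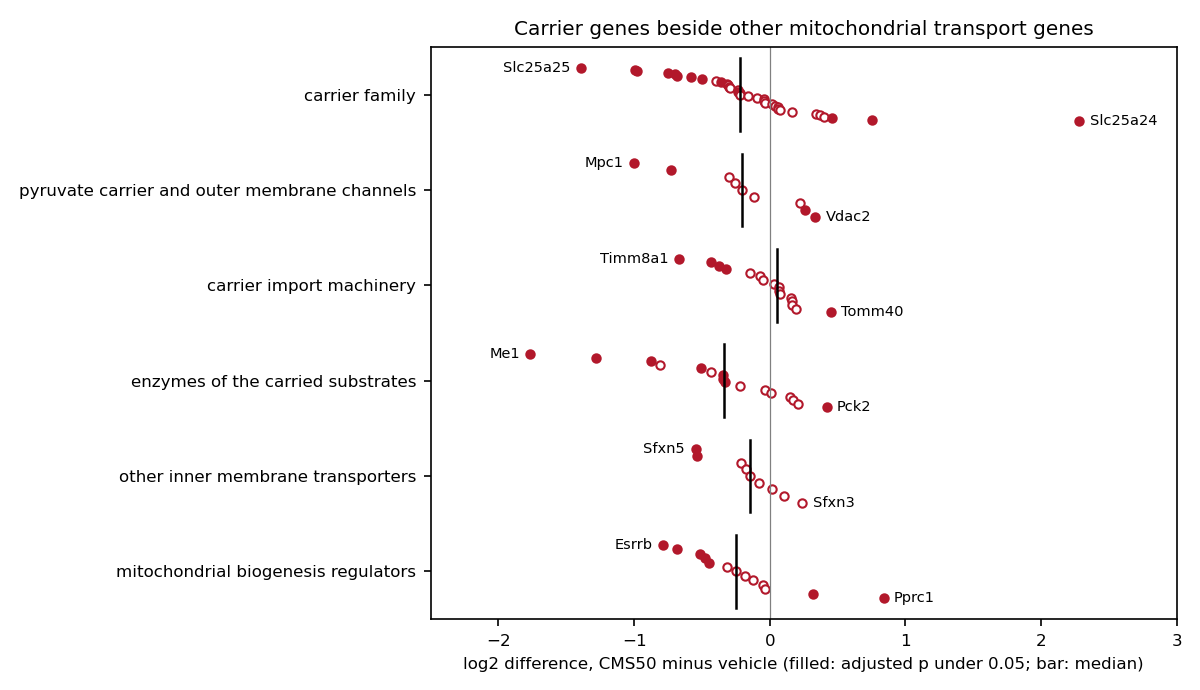
Log2 difference, CMS50 minus vehicle (horizontal axis), of each tested gene in the carrier family and in 5 lists of neighbouring mitochondrial genes; filled points have an adjusted p under 0.05, black bars are list medians, and the genes at either end are named. Medians lie between -0.34 for the enzymes and 0.05 for the import machinery, and the carrier family spans the widest range, from -1.39 to 2.28.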

How the data were processed

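Total RNA from 9 whole right kidneys, 1 per rat, was labelled with biotin and hybridised to Affymetrix rat arrays. The deposited values are log2 intensities made by the authors with RMA in Affymetrix Expression Console, per the submitters' processing notes, and their versions are not given in the sources used here. Because this method gives the arrays the same distribution, it hides any shift common to all genes, and it shrinks small differences of dim probe sets. Values were used as deposited, and array medians ran from 5.41 to 5.46. The number of arrays limits the precision.

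Of 31042 probe sets that are not controls, 20826 were listed with 1 gene in the platform annotation, which can be old. The family had 60 such probe sets, and 13 members had more than 1. The probe set with the highest mean was used per gene, and genes with a mean under 5 were left out. One fit of all 9 arrays by dose was made in limma 3.58.1 (lmFit and eBayes, R 4.3.3), with Benjamini-Hochberg adjustment over all 10337 genes. Other probe sets were read from a fit of all probe sets. Members called in any pairwise comparison were named with every array, the extreme uncalled members of each class were named, and up to 4 called genes of each further list. A few other genes were named after their values were seen: carriers of the same substrate or class as a called one, Timm22, Acly and Ppargc1a, and the called tubule markers. The members, lists and classes were chosen with earlier results of these data known. The fit was tested on simulated data. As alternatives, values were rescaled, the minimum was moved, probe sets were averaged or all tested, the variance was modelled with a trend, arrays were weighted, groups were fitted in pairs, a replicate block was added and each array was left out. Promoter stretches came from a RefSeq table of GRCr8, matched by gene identifier, with the first stretch listed for each gene used. Only these stretches are given positions, because the array files name no build. The labels call the arrays of a dose biological replicates, and same-numbered arrays did not deviate together (correlations from -0.183 to 0.263), so numbers were not treated as pairs. No batch is given in the labels. Plots used Python 3.11.15 and matplotlib 3.10.9.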

Additional observations from a re-analysis of the deposited data

How the results depend on the processing

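With 3 rats per dose, a count of called members depends on single arrays. Leaving out 1 array at a time gave 8 to 18 members for CMS50 minus vehicle, 4 to 19 for CMS50 minus CMS25 and 2 to 15 for the F test, against 13, 15 and 11 with all arrays. The F test count was 3 without CMS50 replicate 1 and 2 without CMS50 replicate 2. With all arrays the F test called 2903 of all genes, and its counts over all genes in these leave-outs are not given here. Fitting only the CMS50 and CMS25 groups gave 9 members and 2165 genes, against 15 and 3128 with all arrays. Fitting only the CMS50 and vehicle groups gave 11 members and 3224 genes, against 13 and 3211. The cause of these shifts was not tested. CMS25 minus vehicle gave 0 members in each alternative. With the replicate block, 12, 0, 14 and 12 members were called in CMS50 minus vehicle, CMS25 minus vehicle, CMS50 minus CMS25 and the F test, and the calls of Slc25a46 for CMS50 minus vehicle (adjusted p = 0.0780) and Slc25a21 for CMS50 minus CMS25 (adjusted p = 0.0591) were lost. Over all genes the replicate block called 2865, 0 and 2857 in the pairwise comparisons, in the same order, against 3211, 0 and 3128 without it. Without CMS50 replicates 1 and 2 the number of genes called for CMS50 minus vehicle was 1711 and 1687, and without vehicle replicate 2 it was 1852, against 3211.

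Of 28 member calls, 10 held in every alternative run: Slc25a1, Slc25a13, Slc25a16, Slc25a24, Slc25a33, Slc25a48, Slc25a51l1 and Ucp2 for CMS50 minus vehicle, and Slc25a24 and Slc25a48 for CMS50 minus CMS25. Over 558 pairings of a call with an alternative, 463 kept the call, 95 lost it and 0 reversed its direction. Moving the minimum, testing every probe set, a variance trend, fits in pairs and the replicate block cannot change a difference, only its adjusted p. The same holds for leaving out an array of the group not compared. No reversal was possible in those pairings, so the 0 says little about them. Averaging all probe sets of a gene moved the Slc25a46 difference to -0.51.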
